A study of Mus musculus with 6 samples.

Results

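The Notch genes of the mouse segmentation clock were examined in presomitic mesoderm, the tissue beside the tail bud that is cut into somites as the embryo grows. They are 10 genes, chosen by name for their place in the pathway, with earlier results of these data known. The list holds the ligand genes Dll1 and Dll3, the receptor gene Notch1, the modulators Lfng and Nrarp, and the target genes Hes7, Hes1, Hes5, Hey1 and Hey2. Each had 1 probe set whose only gene symbol was its own, and the 10 stand among 15153 genes measured in this way. Mutant embryos carried the T-Cre driver and 2 floxed alleles of Taf10 (TCre/+;Taf10flox/flox). Control embryos, labelled WT, carried floxed alleles as well (Taf10Flox/+ or Taf10flox/flox), and their labels name no Cre, so an effect of Cre itself and the loss of Taf10 cannot be told apart. T-Cre is driven by regulatory sequence of T (Brachyury) and is active in the primitive streak and the mesoderm that leaves it. All embryos were at embryonic day 9.5 with 17 to 19 somites, and each of 6 arrays read the RNA of 3 presomitic mesoderms pooled, with 3 pools per genotype. TAF10 is a subunit of TFIID, the factor that recruits RNA polymerase II to promoters, and of the coactivator SAGA.

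Notch is a receptor that is cut when a ligand on a neighbouring cell binds it, and its released intracellular part joins the DNA-binding protein RBPJ to switch on target genes. In presomitic mesoderm the pathway drives an oscillation: HES7 represses its own gene and Lfng, LFNG adds sugars to the receptor and alters its activity, and expression of these genes sweeps through the tissue once for each somite formed. Hes5, Hes1, Hey1, Hey2 and Nrarp are further targets, and in mouse Hes7, Lfng, Dll1 and Dll3 are each needed for regular somites.

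Start regions were taken from RefSeq (build GRCm38.p6), as windows of 300 bases from 250 before to 50 after an annotated start, and 8 of the 10 genes had 1 or more, 9 windows in all. They were searched on both strands for GTGGGAA, the preferred site of RBPJ, which overlaps the shorter core TGGGAA, and for the E-box CACGTG and the N-box CACNAG, the sites of Hes and Hey repressors. GTGGGAA occurred for 4 of the 8 genes, Hes7, Hey2, Hes5 and Lfng, against 6.38% of all 32851 windows. The windows of these 4 are shown because they hold the Notch response motif in a gene that rose in the mutant, in a gene that fell and in genes that did not pass the test, as described below. Capitals mark the core TGGGAA or its reverse complement, which occurred in 25.6% of all windows and for the same 4 of the 8 genes. The Hes7 window lies at chr11:69120203-69120502 on the plus strand, the Hey2 window at chr10:30842734-30843033 on the minus strand, the Hes5 window at chr4:154960673-154960972 on the plus strand and the Lfng window at chr5:140607091-140607390 on the plus strand.
Hes7: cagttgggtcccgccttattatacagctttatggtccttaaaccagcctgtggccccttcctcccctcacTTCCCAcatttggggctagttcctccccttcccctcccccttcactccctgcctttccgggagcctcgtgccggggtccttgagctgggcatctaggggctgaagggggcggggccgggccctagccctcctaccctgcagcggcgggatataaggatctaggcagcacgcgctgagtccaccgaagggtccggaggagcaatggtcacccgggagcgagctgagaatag
Hey2: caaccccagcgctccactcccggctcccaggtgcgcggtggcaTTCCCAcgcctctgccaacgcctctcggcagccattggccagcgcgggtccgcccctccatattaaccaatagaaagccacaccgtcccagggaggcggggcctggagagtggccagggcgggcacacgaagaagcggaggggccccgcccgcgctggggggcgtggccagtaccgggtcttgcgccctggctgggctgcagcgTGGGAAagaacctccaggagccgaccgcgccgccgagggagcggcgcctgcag
Hes5: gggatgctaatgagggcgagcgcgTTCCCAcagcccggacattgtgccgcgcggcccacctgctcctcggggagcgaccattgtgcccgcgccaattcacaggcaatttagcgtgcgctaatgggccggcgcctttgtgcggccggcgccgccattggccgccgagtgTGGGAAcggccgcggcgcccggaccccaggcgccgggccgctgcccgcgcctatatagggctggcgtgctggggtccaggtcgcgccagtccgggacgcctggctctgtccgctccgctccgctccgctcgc
Lfng: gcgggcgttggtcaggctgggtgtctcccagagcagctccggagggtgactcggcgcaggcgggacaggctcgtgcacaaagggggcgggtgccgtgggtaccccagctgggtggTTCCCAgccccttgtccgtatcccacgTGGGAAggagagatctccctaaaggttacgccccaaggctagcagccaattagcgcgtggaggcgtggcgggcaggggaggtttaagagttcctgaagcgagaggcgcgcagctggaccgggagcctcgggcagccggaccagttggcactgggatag
Hes7 had 1 copy of the 7-letter motif, on the opposite strand, beginning 180 bases before the start. Hey2 and Hes5 had 2 copies each, in opposite orientations, at 207 and 4 bases before the start for Hey2 and at 226 and 83 for Hes5. In Lfng the 1 copy of GTGGGAA, at 109 bases before the start, overlaps a CACGTG, and a second TGGGAA core lies at 135 on the opposite strand. Nrarp also held a CACGTG, a motif found in 7.15% of all windows. The N-box was common (42.5% of all windows) and occurred for 5 of the 8 genes. A match is a description of these letters and no evidence of binding.

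Array medians ran from 311.0 to 316.8 in mutant pools and from 307.9 to 317.5 in control pools. The 2 probe sets annotated as Taf10 disagreed, and it is not settled that the brighter one reads Taf10. Of the 20 probe sets next to it in the array's numbering, 0 lie on the chromosome of Taf10, against 19 of 20 for the dimmer one. On the log2 scale the brighter one read 10.40, 10.37 and 10.18 in mutant pools 1 to 3, against 10.77, 10.61 and 10.69 in control pools 1 to 3, and fell by 0.37 (limma adjusted p = 0.0400). The dimmer one read 8.85, 8.93 and 9.19 in mutant pools, against 8.95, 8.89 and 8.79 in control pools (adjusted p = 0.530), so neither is used here as a check of the deletion. Mutant pool 3 lay farthest from its group, at a root mean square distance of 0.184 log2 units, where the remaining pools had 0.0762 to 0.112. The log2 level of Xist, which marks female embryos, was 6.32 in control pool 3 and between 11.35 and 12.57 elsewhere. Of 8 presomitic and tailbud markers measured, 2 rose, Tbx6 (log2 0.63) and Cdx1 (0.43), and 2 fell, Cyp26a1 (log2 -0.74) and Rspo3 (-0.74). The other 4 did not pass, where 2.96% of all genes were called higher and 2.96% lower. The summed intensity of the 8 was 15080 to 17920 in mutant pools and 13690 to 15240 in control pools. Tbx6 and Msgn1 were the brightest of the 8 on every array and weigh most in this linear sum, so it is no measure of all 8 alike. Endothelial markers differed between pools of the same genotype, with a summed intensity over 8 genes of 843, 1610 and 835.1 in mutant pools and 2283, 953.6 and 1219 in control pools, and 0 of the 8 passed limma's test in either direction, also at an unadjusted p under 0.05.

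Hes7 rose in the mutant, Hey2 and Hey1 fell, and the other 7 genes did not pass the test. Changes were tested with limma on log2 intensities over all probe sets with 1 gene symbol, and a gene was called at a Benjamini-Hochberg adjusted p under 0.05. That is 1 of 10 higher, where 2.96% of all 15153 genes were called higher, and 2 of 10 lower, where 2.96% were called lower. Both directions together took in 5.92% of all genes. The 10 genes, like the other gene lists used here, were chosen with earlier results of these data known. Their counts beside these shares are therefore a description and not a test of the list. Without adjustment, 3 were higher and 3 lower at p under 0.05, a limit that 22.7% of all genes passed. The median log2 change of the 10 was -0.01, and that of all genes was 0.03. The mutant and control arrays did not overlap for 5 of the 10, Hes7, Dll1 and Dll3 above and Hey1 and Hey2 below, as was so for 32.3% of all genes. In bulk tissue, fewer cells that express a gene and less RNA per cell cannot be told apart. The pools are called biological replicates in the labels, and the p-values rest on how far such pools lie apart.

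**Figure D1:**
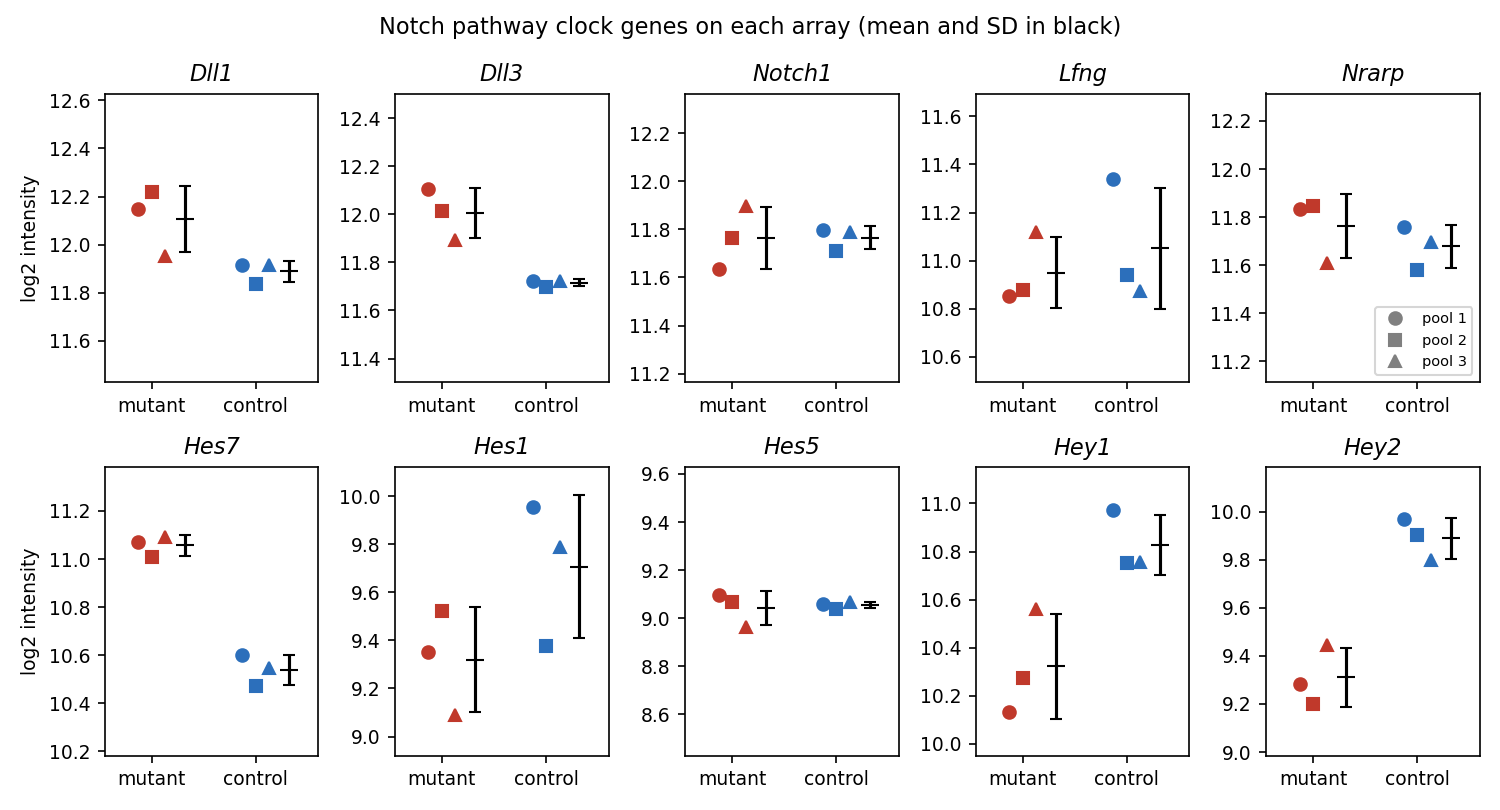
Log2 intensity (y axis, 1.2 log2 units high in every panel) of the 10 genes in mutant (red, left) and control (blue, right) pools; each symbol is 1 array, with the mean and SD of the 3 pools in black beside it. Hes7 lies above all controls in every mutant pool and Hey1 and Hey2 below them, while Hes5 and Notch1 overlap.

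Hes7 encodes the oscillating repressor at the core of the clock. It read log2 levels of 11.07, 11.01 and 11.09 in mutant pools 1 to 3, against 10.60, 10.47 and 10.55 in control pools 1 to 3. Every mutant pool was above every control pool, and the gap between the groups was far wider than the spread within either. The mean was 11.06 ± 0.04 in mutant pools and 10.54 ± 0.06 in control pools (SD, n = 3 each), a rise of 1.43-fold (log2 0.52, SE 0.07, 95% interval 0.37 to 0.67, limma adjusted p = 0.00758). By p-value Hes7 stood in place 94 of the 15153 genes. An exact permutation test over the 6 pools, two-sided, gave p = 0.1 and cannot go lower with 3 against 3. With 1 array left out, the log2 change ran from 0.49 to 0.55, and the call was lost without control pool 1 (adjusted p = 0.0501) or control pool 2 (0.0626).

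Hey2, a target gene of Notch that encodes a repressor of the Hes and Hey family, is best known from arteries and heart. It read log2 levels of 9.28, 9.20 and 9.45 in mutant pools, against 9.97, 9.90 and 9.80 in control pools. All mutant pools lay below all control pools. The mean was 9.31 ± 0.12 in mutant pools and 9.89 ± 0.09 in control pools (SD, n = 3 each), so Hey2 fell to 67.0% of control (log2 -0.58, SE 0.08, 95% interval -0.77 to -0.38, limma adjusted p = 0.0121). The call was lost without control pool 1 (adjusted p = 0.0796) or control pool 2 (0.0817).

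Hey1, its close relative and also a Notch target, read log2 levels of 10.13, 10.28 and 10.56 in mutant pools, against 10.97, 10.75 and 10.76 in control pools. The groups did not overlap, although mutant pool 3 came close to the lower controls. Hey1 fell to 70.5% of control (log2 -0.50, SE 0.12, 95% interval -0.78 to -0.23), with a limma adjusted p of 0.0481, just under the threshold. That call was lost without control pool 1 (0.198), control pool 2 (0.155), control pool 3 (0.111), mutant pool 1 (0.106) or mutant pool 2 (0.113), and held without mutant pool 3 (0.00448). It was also lost with the level of Xist in the fit (0.0962) and after quantile normalization (0.0855), and it passed under 6 of 16 alternatives in all. Hey1 and Hey2 are expressed in blood vessels as well as in mesoderm, and the endothelial markers were highest in control pool 1. Without that pool the log2 change was -0.54 for Hey2 and -0.43 for Hey1, against -0.58 and -0.50 with it. Among control pools Hey1 and Hey2 were both highest in pool 1 (log2 10.97 and 9.97), where the summed endothelial markers were also highest (2283). Hey2 was lower in control pool 3 (9.80) than in control pool 2 (9.90), though the sum was higher there (1219 against 953.6). Among mutant pools the summed endothelial markers were highest in pool 2 (1610), where Hey2 was lowest (log2 9.20). Hey1 and Hey2 were both highest in mutant pool 3 (10.56 and 9.45), where the sum was lowest (835.1). The part of vessel cells in either level was not tested.

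**Figure D2:**
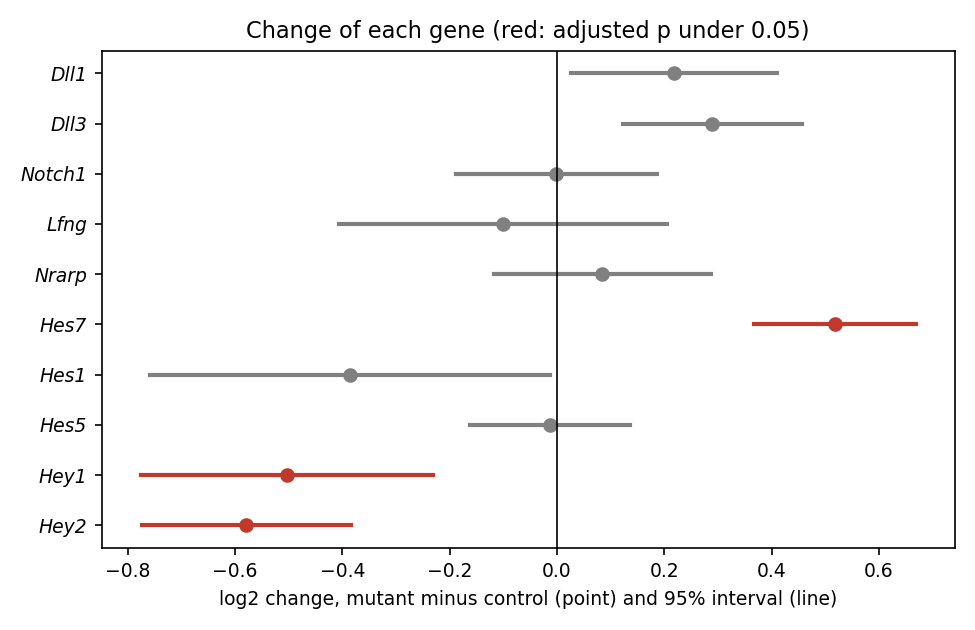
Log2 change, mutant minus control (x axis), of each of the 10 genes (rows) with its 95% interval from limma, 3 pools per genotype; red marks an adjusted p under 0.05. Hes7 lies at 0.52 and Hey1 and Hey2 at -0.50 and -0.58, while the intervals of Notch1, Lfng, Nrarp and Hes5 span 0.

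Hes1, another oscillating repressor, did not pass, and its pools were widely scattered. It read log2 levels of 9.35, 9.52 and 9.09 in mutant pools, against 9.95, 9.38 and 9.79 in control pools. Control pool 2 lay within the mutant range and the groups overlapped. The log2 change was -0.39 (SE 0.16, 95% interval -0.76 to -0.01, limma adjusted p = 0.205), and with arrays left out it ran from -0.55 to -0.23 with adjusted p of 0.143 to 0.541. Within each genotype, the pools ranked in the same order by Hes1 as by the summed endothelial markers, with mutant pool 2 and control pool 1 highest in their groups. Mutant pools 1 and 3 were nearly equal in that sum (843 and 835.1), though Hes1 read 9.35 and 9.09. Single markers ranked these pools either way, with Kdr higher in mutant pool 1 and Tek in mutant pool 3. The part of vessel cells in the Hes1 level was not tested.

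Hes5, a Notch target that is also abundant in neural progenitors, read log2 levels of 9.10, 9.07 and 8.96 in mutant pools, against 9.06, 9.04 and 9.07 in control pools. The groups overlapped, with means of 9.04 in mutant pools and 9.06 in control pools. The log2 change was -0.01 (SE 0.06, 95% interval -0.16 to 0.14, limma adjusted p = 0.916). In fold terms that interval runs from 0.893 to 1.10, so a change of the size seen for Hes7 lies outside it. The summed intensity of 7 neural tube markers was 1378 to 1500 in mutant pools and 1289 to 1504 in control pools, and 0 of them passed limma's test, also at an unadjusted p under 0.05.

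Lfng, the oscillating glycosyltransferase that modifies Notch, did not pass. It read log2 levels of 10.85, 10.88 and 11.12 in mutant pools, against 11.34, 10.94 and 10.88 in control pools. Mutant pool 3 and control pool 1 stood above the rest, and the other pools of both genotypes were close together. Without control pool 1 the log2 change was 0.04, against -0.10 with all 6 arrays (SE 0.13, limma adjusted p = 0.676), so its sign rested on that pool. Nrarp, a feedback inhibitor that binds the released part of Notch, read log2 levels of 11.83, 11.85 and 11.61 in mutant pools, against 11.76, 11.58 and 11.70 in control pools. The groups overlapped, and the log2 change was 0.08 (SE 0.09, 95% interval -0.12 to 0.29, limma adjusted p = 0.590). With array weights it was 0.19 and passed (limma adjusted p = 0.0311). Those weights called 12.3% of all genes higher, against 2.96% in the main test.

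Dll1 encodes the ligand that activates Notch in presomitic mesoderm, and Dll3 a divergent ligand that acts inside the cell and does not activate the receptor. Dll1 read log2 levels of 12.15, 12.22 and 11.95 in mutant pools, against 11.92, 11.84 and 11.92 in control pools. Dll3 read log2 levels of 12.11, 12.01 and 11.90 in mutant pools, against 11.72, 11.70 and 11.72 in control pools. For both ligands every mutant pool was above every control pool, with mutant pool 3 the lowest of its group. Neither passed: the log2 change was 0.22 for Dll1 (SE 0.08, 95% interval 0.03 to 0.41, limma adjusted p = 0.168) and 0.29 for Dll3 (SE 0.07, 95% interval 0.12 to 0.46, limma adjusted p = 0.0572). Without mutant pool 3 both passed, at a log2 change of 0.30 for Dll1 (adjusted p = 0.0148) and 0.34 for Dll3 (0.00770). Without any other single array neither did. Mutant pool 3 lay farthest from its group, and the share of all genes called without it was not counted. Of 16 alternatives, Dll3 passed under 6, among them quantile normalization (limma adjusted p = 0.0200). Dll1 passed under 3, among them array weights (log2 0.32, limma adjusted p = 0.00146), which called 12.3% of all genes higher.

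Notch1, the receptor gene, read log2 levels of 11.63, 11.76 and 11.89 in mutant pools, against 11.80, 11.71 and 11.79 in control pools. The mutant pools spread to both sides of the controls. The log2 change was 0.00 (SE 0.08, 95% interval -0.19 to 0.19, limma adjusted p = 0.992), an interval from 0.878-fold to 1.14-fold.

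The changes of Hes7 and of the other target and modulator genes were set against each other within arrays, in 7 pairs with the ligands. Hes7 by itself separated the groups, so a separation against a gene that changed little restates its own rise. Hey1 and Hey2 also separated the groups, in the other direction. The mean difference between the changes ran from 0.43 log2 units for Nrarp to 1.10 for Hey2, over the 6 genes Hey2, Hey1, Hes1, Lfng, Hes5 and Nrarp. Each had an exact two-sided permutation p of 0.1, the smallest possible here, and 0.117 after adjustment over the 7 pairs, so this test could not pass. For Hey2, the difference stood 0.996 to 1.16 log2 units above the control mean in mutant pools, against -0.08 to 0.10 in control pools. For Dll1 minus Dll3 the groups overlapped (difference -0.07, exact permutation p = 0.4, adjusted 0.4).

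The genes differed in how far pools of 1 genotype lay apart. Pools mix embryos whose clocks may stand at different phases, and the SD over 3 pools was placed among the 500 probe sets nearest in mean level, as a description. In control pools Hes1 had an SD of 0.296, above all 500, and Lfng an SD of 0.251, at the 99.4th percentile. Hey1 came next with 0.125 (94.8th), then Nrarp with 0.0889 (85.2nd) and Hey2 with 0.0855 (74.2nd). The lowest were Hes5 with 0.0136 (2.8th percentile) and Dll3 with 0.0144 (5.4th). Hes7 lay between them in control pools, with 0.0628 (65.2nd percentile). In mutant pools Hes1 and Hey1 both had an SD of 0.218 (77th and 74.4th percentiles), Lfng one of 0.147 (58.8th) and Hes7 one of 0.0435 (16.8th). The median SD of the like-level probe sets was itself higher in mutant pools, where mutant pool 3 stood apart, so the SD of a gene is read here only against other probe sets in the same genotype. Somite markers also varied among control pools, at a summed intensity over 6 genes of 3407, 4381 and 3853 in mutant pools and 5171, 4138 and 3988 in control pools, and their part in the Lfng level was not tested.

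**Figure D3:**
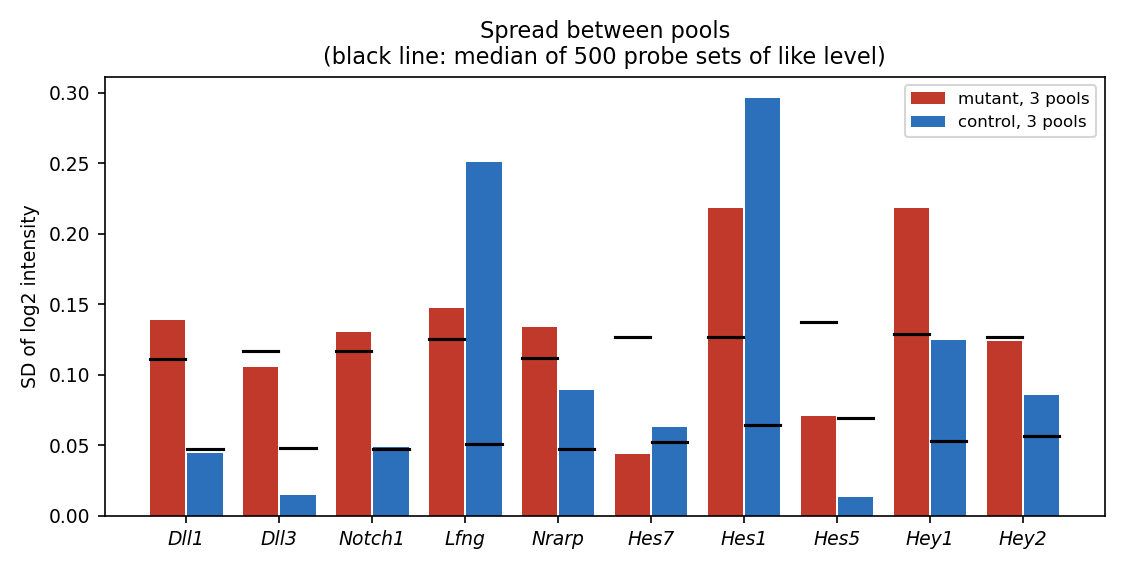
SD of log2 intensity (y axis) over the 3 mutant pools (red) and the 3 control pools (blue) for each of the 10 genes, with the median SD of the 500 probe sets nearest in mean level as a black line. Hes1 and Lfng stand above the others in control pools, at 0.296 and 0.251.

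Genes whose pattern over the 6 arrays was most like that of Hes7 or Lfng were found by Pearson correlation of log2 levels among genes with an SD of at least 0.2. For Hes7 the closest 5 were Anxa5 (r = 0.997), Cyb561a3 (0.997), Plxna3 (0.995), Taf12 (0.995) and Morn2 (0.994). All 5 passed the test between the genotypes and were higher in the mutant, so the 6 points share the genotype difference. For Lfng they were Cpn1 (r = 0.925), Arhgdib (0.910), Bgn (0.908), Mesp2 (0.907) and Fam163a (0.886), none of which passed between the genotypes. These are the highest r among 2599 genes over only 6 arrays. Whether unrelated genes would reach such values was not tested, so the likeness to Lfng is a description. Mesp2 encodes the factor that sets the next segment border. It read log2 levels of 8.36, 8.74 and 9.12 in mutant pools, against 9.23, 8.76 and 8.64 in control pools, and was highest in the same pool of each genotype as Lfng (log2 change -0.14, limma adjusted p = 0.718).

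Of 56 further Notch pathway genes listed, 52 were measured and 0 passed limma's test in either direction. Without adjustment, 4 were higher and 5 lower at p under 0.05, a limit that 22.7% of all genes passed. With array weights 4 passed as higher and 6 as lower, where 12.3% of all genes were called higher and 11.5% lower. Their median log2 change was 0.04, with 30 positive and 22 negative. The groups did not overlap for 18 of the 52, where 32.3% of all genes did not. The smallest p-values were those of Jag1, Rfng, Dlk1, Hdac1, Snw1 and Tle1.

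Jag1, a ligand gene of the Jagged family, averaged a log2 level of 9.43 in mutant pools and 9.77 in control pools (change -0.34, SE 0.08, limma adjusted p = 0.0566). Rfng, a glycosyltransferase gene related to Lfng, averaged 8.18 in mutant pools and 7.85 in control pools (change 0.33, SE 0.08, limma adjusted p = 0.0578). For both, and also for Dlk1, Snw1, Hdac1 and Tle1, the groups did not overlap, as was so for 32.3% of all genes. Dlk1, a Notch-like ligand without the domain that activates the receptor, had a log2 change of -0.28 (limma adjusted p = 0.0820). The nuclear cofactor gene Snw1 had a log2 change of -0.39 (adjusted p = 0.108). Of the co-repressor genes, Hdac1 had 0.22 (adjusted p = 0.0832) and Tle1, of the Groucho family that Hes proteins recruit, -0.46 (adjusted p = 0.127).

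Rbpj, the DNA-binding partner of Notch, had a log2 change of 0.07 (limma adjusted p = 0.592). The 9 measured genes for cutting the receptor, among them those of the gamma-secretase complex and the ADAM proteases, had log2 changes from -0.19 to 0.18. The 3 other receptor genes ran from -0.06 for Notch3 to 0.17 for Notch2. The other Hes and Hey genes measured, Hes2, Hes3, Hes6 and Heyl, ran from -0.08 to 0.17, so Hes7, Hey1 and Hey2 were the genes of that family called in either direction.

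**Figure D4:**
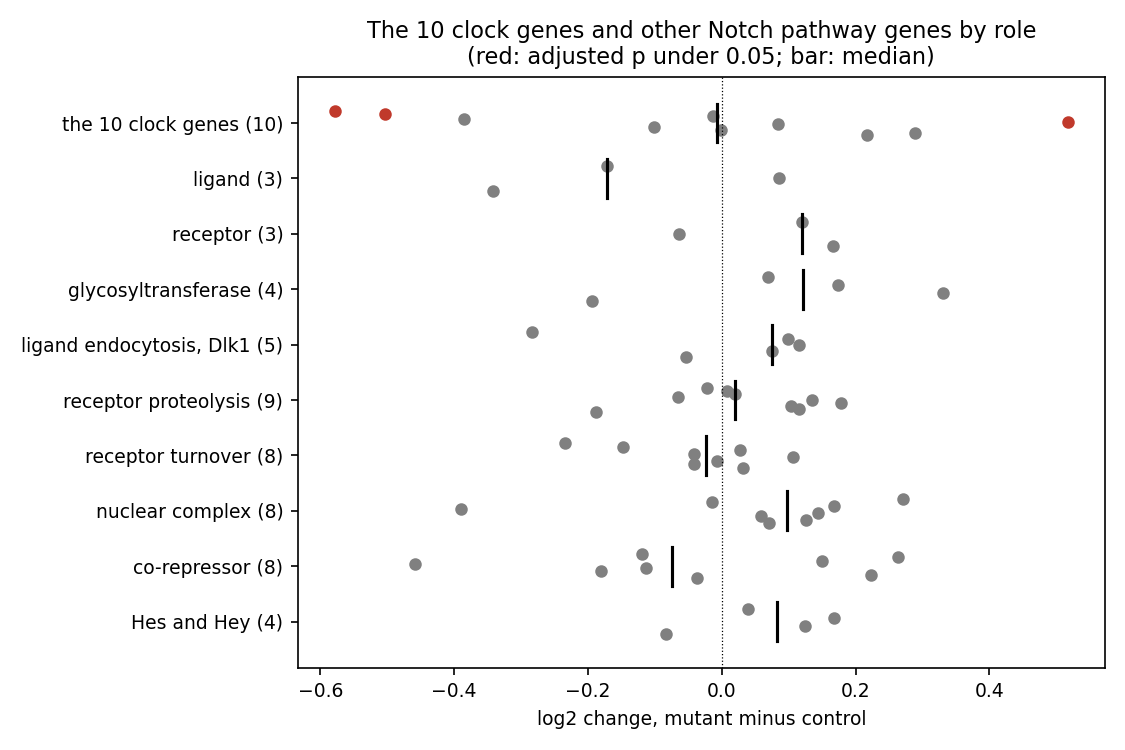
Log2 change, mutant minus control (x axis), of the 10 clock genes and of 52 other Notch pathway genes by role (rows, with the number measured); each point is a gene, red marks an adjusted p under 0.05 and the black bar is the median of the row. The red points are Hey2 and Hey1 at -0.58 and -0.50 and Hes7 at 0.52, and 0 of the other 52 are red.

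Of 15 Wnt and FGF genes that also belong to the clock or its feedback, 4 fell, where 2.96% of all genes were called lower, and 0 rose in limma. Those that fell were Dusp4 (log2 -0.72), Spry4 (-0.62), Dusp6 (-0.56) and Spry2 (-0.40). The other 11 did not pass, among them Dkk1, an inhibitor of Wnt signalling with the largest change of the 15 (log2 1.02, limma adjusted p = 0.0729), and Dusp2 (log2 0.16). At an unadjusted p under 0.05, which 22.7% of all genes passed, the list had 2 higher and 4 lower. Among 9 genes that act with or downstream of Notch in segment formation, Tbx6, a factor that activates Dll1 and Mesp2 in mouse, rose. It read log2 levels of 12.59, 12.47 and 12.77 in mutant pools, against 11.95, 11.89 and 12.09 in control pools (change 0.63, SE 0.09, limma adjusted p = 0.0129). The other 8, Mesp2 among them, did not pass, where 2.96% of all genes were called higher and 2.96% lower. At an unadjusted p under 0.05, 2 of the 9 were higher and 1 lower, a limit that 22.7% of all genes passed.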

How the data were processed

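Per the submitters' processing notes, the authors made the deposited intensity values with RMA, a method of background correction, normalization between arrays and summary over probes. The sources used here give neither its version nor a filter, and the values are on a linear scale. Labelled single-strand cDNA was made from 150 ng RNA per the labels' protocols. The log2 of each value was taken, without another normalization or a filter on level. Of 18064 probe sets, 16311 carried 1 gene symbol, and the gene IDs of 16284 matched RefSeq. The fit used lmFit and eBayes of limma 3.58.1 under R 4.3.3 (mutant minus control, no covariate), with Benjamini-Hochberg adjustment over all 16311. The probe set with the highest mean stood for a gene, which left 15153 genes. Standard errors and 95% intervals are those of the moderated test. The fit was tested on simulated data. Named were the 10 members, the called genes and the 6 smallest p-values of the wider pathway list, called genes of the other lists with Mesp2 and Tbx6, and the 5 genes most like Hes7 and Lfng. Rbpj, Dkk1, Dusp2, Cdx1, Cyp26a1, Rspo3 and the receptor genes at the ends of their range were named after their values were seen. The members and lists were chosen with earlier results of these data known. The number of arrays limits the precision.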

Additional observations from a re-analysis of the deposited data

How the results depend on the processing

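Hes7 and Hey2 kept their direction under all 16 alternatives and passed under 14 of them, and Hey1 kept its direction under all 16 and passed under 6. In the main test 1 of the 10 genes was higher and 2 were lower, and 0 of the other 52 pathway genes passed in either direction. With each array left out in turn, and with control 3 and mutant 3 left out together, 0 to 3 of the 10 were higher and 0 to 2 lower, and 0 to 4 of the other genes were higher and 0 to 4 lower. For the 10 genes both counts were 0 without control 1 or control 2, and for the other genes both were 0 in each leave-out of 1 array apart from that of mutant 3. Without control 3 and mutant 3 together the counts were 3 and 2 of the 10 and 3 and 4 of the others. For the 10 genes, 4 were higher with array weights, and 2 with eBayes using trend and robust, with the filter at the 40th percentile of level, after quantile normalization and at an adjusted p under 0.1. A single gene was lower (1) with Xist as covariate, over all probe sets, after median centring, after quantile normalization and with the replicate block, where Hey1 no longer passed (adjusted p = 0.0632 with the block). For the other pathway genes, 4 were higher and 6 lower with array weights, 1 and 1 after quantile normalization, 2 and 2 at an adjusted p under 0.1, 1 was higher with the replicate block, and 1 was lower with the filter and after median centring. With array weights, 12.3% of all genes were called higher and 11.5% lower, against 2.96% each in the main test. Apart from the replicate block, the share of all genes was not counted under the other settings. The causes of these shifts were not tested. Samples sharing a replicate number had deviations correlated at 0.134, 0.0769 and 0.316, and 2 of 6 arrays correlated best with their own number, so the numbers were not taken as pairs; the block moved the count of changed genes to 1084, against 897. The sources used here give no signal over background, so low levels cannot be told from absence.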
